A study of Mus musculus with 9 samples.

Results

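RNA refolded in vitro was compared with RNA probed inside mouse embryonic stem cells that had been depleted of ATP. The question was which differences between tube and cell are seen when cells lack ATP. Untreated cells were not part of the comparison. A difference that remained without ATP therefore cannot be told apart here from one that ATP depletion brought about. All samples came from the E14 line of mouse embryonic stem cells, of genotype E14TG2a, and both groups held 3 samples, which makes 6 of the 9 samples of the series. The ATP-depleted cells were kept for 10 min in glucose-free medium with 10 mM 2-deoxyglucose, which blocks glycolysis, and 10 mM sodium azide, which blocks respiration, and both drugs stayed in the later media. The probe, dimethyl sulfate (DMS), was then added to 1.6%, with 250 mM bicine as buffer, and left on the cells at 37 °C for 6 min. For the in vitro group the sample titles name refolding only, and the column headers call it not depleted. The sources used here do not give its buffer, dose or time. ATP levels and cell viability were not measured in these data, and 1 cell line was used.

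The members are readings of A and C nucleotides in amplicons of conserved 5′ untranslated regions. There were 16187 such readings among 32967 in the table, and 16178 of them had counts in at least 1 of the 6 samples and were tested, 6836 A and 9342 C. They lie at 13550 distinct positions of 69 transcripts, read in 161 amplicons that in part overlap. Reactivity is given in counts per 1000000 counts (CPM) within 1 amplicon and sample, as deposited. The deposited values also hold a scaling factor per library, described with the processing. Reactivity mainly shows how the DMS signal was shared out along an amplicon. A nucleotide can rise because others fall, or through that factor.

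DMS methylates the base-pairing face of A and C where that face is free, and reverse transcriptase reads the methylated base as a mutation. A nucleotide in a base pair, or one covered by a bound protein or RNA, reacts weakly. The 5′ untranslated region lies between the cap and the start codon AUG, where the small ribosomal subunit scans for the start. In living cells, helicases that spend ATP, ribosomes and RNA-binding proteins all meet the RNA, whereas purified RNA folds alone. ATP depletion stops helicases and slows translation but leaves proteins in the cell.

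The sequences below carry large differences, with the tested base in capitals, and are not a full ranking. Larger changes than some of these, such as C488 of Taok2 and C1582 of Brd2, are given in the text only. The naming rule took the largest change per transcript in amplicons with at least 5000 counts in every library. It took only calls without overlap between the groups, so lack of overlap was fixed in advance. A553 of Ddx17 was outside this rule. They are those of the deposited amplicon table, 5′ to 3′, in DNA letters, and positions count from 1 at the 5′ end of the RefSeq transcript. The first group reacted more strongly in vitro.
Ddx17 C782: atagggtaatCacaaaccaag
Ddx17 A553: gtctgaaggtAagttggttgt
Cnot3 C282: tcgcctgtcgCgatacgctcc
Azin1 C262: gcccaggccgCcttgggtatt
Ext1 C368: tagtgctctgCaccggagtgt
The second group reacted more strongly in ATP-depleted cells.
Ptp4a2 C88: ctcccgcctcCgccggccttc
Ddx17 C866: ttttttgtacCtactcagggc
Cnot3 C287: tgtcgcgataCgctccgcagc
Chtop C288: ccgggaggagCgctggcgtcc
Smad6 C1022: accccaggcgCcaaagggtat
Ube4b C365: gtcaccgccaCgaagacacgg
The last group are 25-nt stretches whose mean changed, with every A and C in capitals. The first 3 rose in vitro and the last 3 fell.
Ddx17 819 to 843: ggCACtgAtCCtCttttACtCtgtt
Chd2 25 to 49: ggCggCtgtgCCttAgAgAgAgCgC
Tulp4 76 to 100: CtgtgAgCAgtgggggAAAgAgtgA
Brd2 1566 to 1590: CCCgCCggtCCCgCAACgAggCtgA
Ext1 477 to 501: CgggAgCtttttCttCCCtgCtCtC
Zc3h6 255 to 279: tttttACCACttCgtCACCtgtCgg

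Depth was uneven between the groups. The recovered counts were 5743965 to 10530190 per in vitro sample and 11260434 to 12616275 per ATP-depleted sample, and a single library, 1 amplicon in 1 sample, held 96 to 564826 counts with a median of 37222. In 117 of 161 amplicons every library held at least 5000 counts. Across the tested readings, which are not independent replicates, samples correlated at a mean Pearson r of 0.762 among the in vitro samples, 0.858 among the ATP-depleted samples and 0.713 between the groups. Amplification copies each molecule many times, so counting error understates the true error, and no sample without DMS was analysed here.

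At the level of whole transcripts, the DMS signal was more uneven in vitro than in ATP-depleted cells. The Gini coefficient, which measures unevenness and is 0 for A and C that all react alike, rose in 58 of 69 transcripts (84.1%) and fell in 1 (1.45%), Ddx17, by limma with Benjamini-Hochberg adjustment at 0.05. The median difference over the 69 transcripts was 0.0838, and 66 of them had a positive difference. The median coefficient of a sample was 0.422 ± 0.0232 in vitro and 0.341 ± 0.0199 in ATP-depleted cells (SD, n = 3 each). Every in vitro sample lay above every ATP-depleted one, and single transcripts had groups that did not overlap in 79.7% of cases. The exact two-sided permutation p was 0.1, the smallest that 3 samples against 3 can give. Noise in shallow libraries also raises the coefficient and the in vitro libraries were the shallower ones. With the counts of each amplicon thinned to its smallest library, 56 transcripts rose and 1 fell. Thinning evens out counts and not the number of molecules that were copied, so the part of noise was not tested.

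Ctcf, which encodes the zinc finger protein at insulators and loop anchors, rose with little spread. Its coefficients were 0.449, 0.441 and 0.439 in vitro and 0.301, 0.277 and 0.293 in ATP-depleted cells. The groups were far apart, with a difference of 0.153 (SE 0.0114, limma adjusted p = 0.00052). Hexim1, an inhibitor of the elongation kinase P-TEFb, rose from 0.359 ± 0.0104 in ATP-depleted cells to 0.501 ± 0.0199 in vitro (SD, n = 3 each; limma adjusted p = 0.000984). Eif5, a factor in start codon selection, had 0.421 ± 0.0107 in vitro against 0.281 ± 0.0136 (SD, n = 3 each; limma adjusted p = 0.00077). The calls of Ctcf and Hexim1 held in every alternative run, while Eif5, outside the naming rule, was not followed through them.

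Some of the largest rises rest on thin libraries. Rarg, the retinoic acid receptor gamma, had 0.613, 0.642 and 0.529 in vitro and 0.417, 0.355 and 0.402 in ATP-depleted cells, a difference of 0.203 (SE 0.0323, limma adjusted p = 0.00219), but its smallest library held 458 counts. Thinned to equal depth, its difference was 0.184. Eed, a subunit of Polycomb complex PRC2, had 0.582 ± 0.00776 against 0.44 ± 0.0274 (SD, n = 3 each; limma adjusted p = 0.00115), with a smallest library of 478 counts. Bcl2, which blocks apoptosis, had 0.475, 0.575 and 0.352 in vitro and 0.325, 0.276 and 0.298 in ATP-depleted cells. The third in vitro sample lay just above the highest ATP-depleted one. Its call (limma adjusted p = 0.0262) was lost without in vitro replicate 1, without ATP-depleted replicate 2 and without ATP-depleted replicate 3, where the difference was 0.164, 0.156 and 0.167. It was also lost with A alone (0.163) and among nucleotides with a mean at or above the median (0.102).

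**Figure D1:**
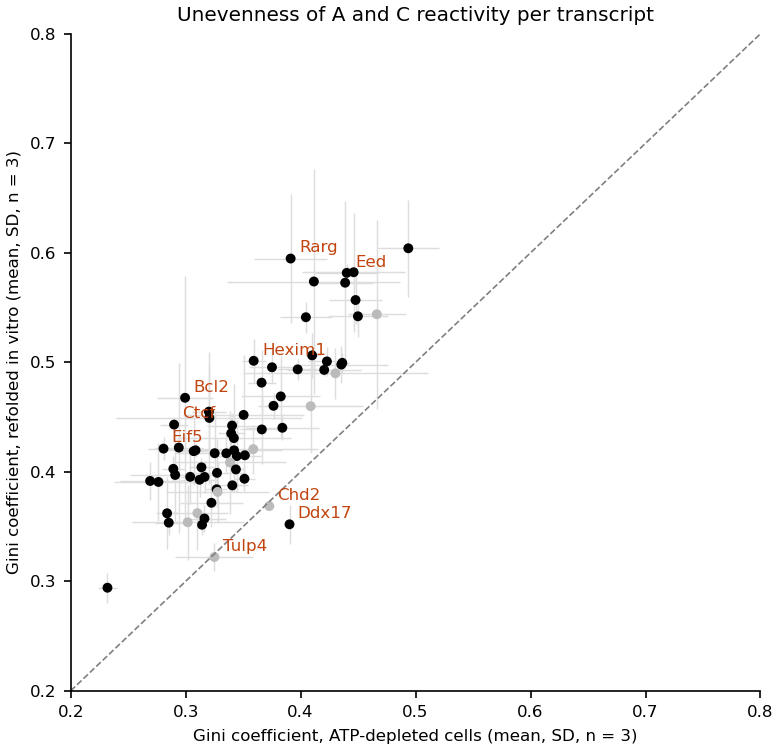
Gini coefficient of A and C reactivity for each of 69 transcripts, ATP-depleted cells on the horizontal axis and RNA refolded in vitro on the vertical axis (points, means of 3 samples; bars, SD; black, limma adjusted p under 0.05; grey, not called; dashed line, equal values). Nearly all points lie above the line, and Ddx17 is the only called transcript below it.

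Ddx17 encodes a DEAD-box RNA helicase, and its leader was the only one with a called fall. Its coefficients were 0.36, 0.364 and 0.332 in vitro and 0.387, 0.393 and 0.391 in ATP-depleted cells. All in vitro values lay below the ATP-depleted ones, with a difference of -0.0383 (SE 0.0127, limma adjusted p = 0.0298). The difference was not uniform along the leader. It was 0.0462 and 0.0897 in the amplicons from 172 to 422 and from 333 to 583, and -0.0361, -0.166 and -0.125 in those from 503 to 753, 639 to 889 and 731 to 981. The call of the mean over the 5 amplicons was lost without in vitro replicate 1 or 3 and without ATP-depleted replicate 2 or 3, at -0.0422, -0.0282, -0.0368 and -0.0379, and with C alone, at -0.0268. The value turned to 0.0354 when only nucleotides with a mean at or above the median were kept.

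Chd2, a chromatin remodeller, and Tulp4 had the next lowest differences, -0.00402 and -0.00285 (limma adjusted p = 0.707 and 0.887). Chd2 had 0.368, 0.37 and 0.369 in vitro and 0.377, 0.369 and 0.371 in ATP-depleted cells, so its groups overlapped. Of single readings, 17 were called higher and 9 lower of 179 in Chd2 (14.5%). In Tulp4 24 were higher and 5 lower of 272 (10.7%), near the 9.91% called over all readings.

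In the tests of single nucleotides, limma called 1603 of 16178 readings (9.91%) at an adjusted p under 0.05, 877 higher (5.42%) and 726 lower (4.49%) in vitro. The 1603 calls all had groups that did not overlap, as did 34.8% of all tested readings. They touched all 69 transcripts and 159 of 161 amplicons. The split between higher and lower depends on scaling, at 525 higher and 1069 lower when each amplicon was scaled to its mean, 492 and 683 after thinning to equal depth, 588 and 597 on the deposited log2 scale, and 661 and 122 when nucleotides with a mean under the median were left out. The count also rests on few samples: without ATP-depleted replicate 1 it was 98, and without replicate 2 or replicate 3 of that group it was 0 (smallest limma adjusted p = 0.0585 and 0.0532), with 3233 and 3463 readings at an unadjusted p under 0.05. The single-nucleotide calls given here are all lost in those last 2 fits.

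The largest rise was at C782 of Ddx17. Its reactivity was 15033, 16227 and 12502 CPM in vitro and 776, 712 and 853 CPM in ATP-depleted cells. It was 18.7 times higher in vitro, and the log2 change was 2.16 (SE 0.12, limma adjusted p = 0.00479). The overlapping amplicon gave 10102, 11299 and 10466 CPM against 499, 579 and 598 CPM, a log2 change of 1.89. Close by, C784 rose from 1370 ± 272 to 13761 ± 1504 CPM (SD, n = 3 each). The C at 821 rose from 449 ± 54.9 to 8490 ± 1457 CPM, and that at 831 from 543 ± 27.1 to 8635 ± 541 CPM (SD, n = 3 each). Of the A between them, A783, A791 and A822 also rose, from 2153 to 10403, from 2826 to 9846 and from 1223 to 6326 CPM. Others moved little or the other way. A785 had 15673 CPM in vitro and 15769 CPM in ATP-depleted cells, and A805 had 15735 against 30697 CPM, a log2 change of -0.84. In the overlapping amplicon A805 had 26698 against 38354 CPM, and its groups overlapped. The log2 change there was -0.49 and was not called (limma adjusted p = 0.166). The stretch thus held both strong and near-silent nucleotides in ATP-depleted cells.

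The window of Ddx17 from 819 to 843 had the largest rise of all named windows. Its mean over 10 nucleotides was 6961, 6757 and 6834 CPM in vitro and 3602, 3185 and 3474 CPM in ATP-depleted cells. The groups were far apart, with a difference of 0.82 in mean log2 reactivity (SE 0.039, limma adjusted p = 0.000144), and 7 of the 10 nucleotides were called higher and 0 lower. The overlapping amplicon gave 0.90. Downstream the direction turned. The window from 854 to 878 had 4525, 4090 and 4939 CPM in vitro and 7632, 9313 and 9442 CPM in ATP-depleted cells, a difference of -0.50 (limma adjusted p = 0.00749). Within it C866 had 983, 1443 and 1349 CPM in vitro and 7858, 11967 and 10140 CPM in ATP-depleted cells, a log2 change of -1.56 with an SE of 0.14 (limma adjusted p = 0.00788).

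**Figure D2:**
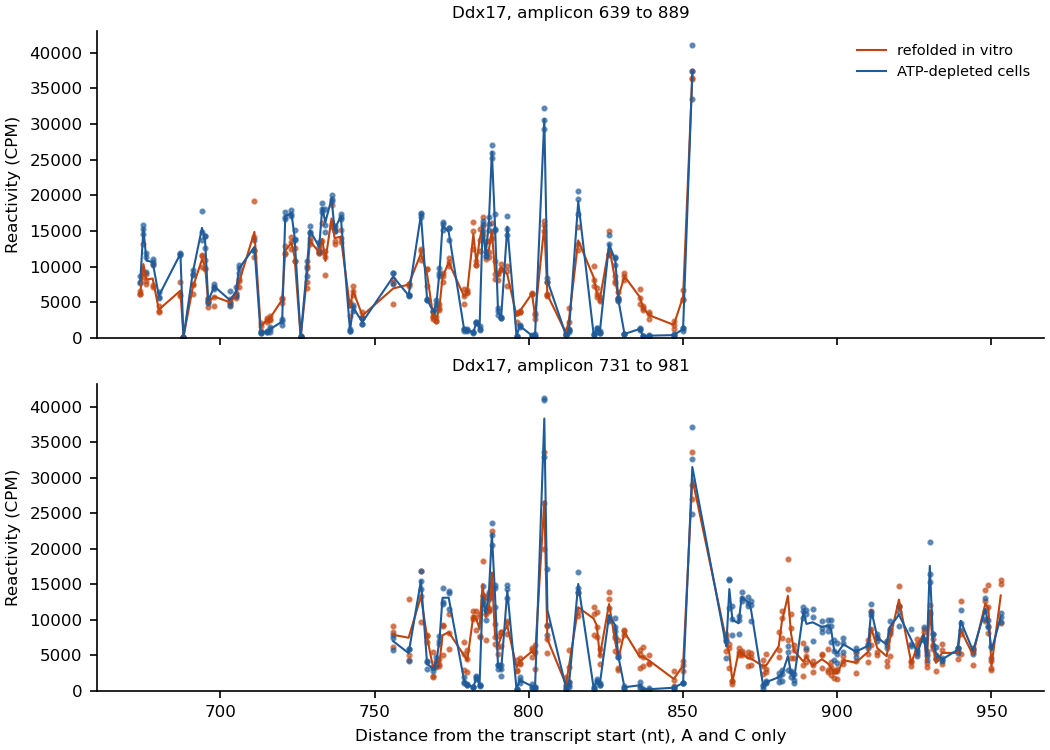
Reactivity of A and C along the Ddx17 leader in 2 overlapping amplicons, in CPM, against distance from the transcript start (points, single samples; lines, means of 3 samples joined between consecutive A and C; orange, refolded in vitro; blue, ATP-depleted cells). Between 779 and 850 many nucleotides close to 0 in ATP-depleted cells react in vitro in both amplicons, for example C782 at 14587 against 780 CPM in the upper panel, and from 865 to 872 the blue line lies above.

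Farther upstream in Ddx17, A553 had 16344, 17522 and 16542 CPM in vitro and 2715, 1702 and 3461 CPM in ATP-depleted cells in the amplicon from 333 to 583. The groups did not overlap, with a log2 change of 1.80 there and 1.71 in the amplicon from 503 to 753. A554 rose as well, by 1.35 and 1.24. These A lie in the letters GTAAGT, which match the start of an intron in its consensus form; the match was noticed after the values were seen. On the sense strand 5 of 161 amplicons (3.11%) hold these letters, at 4 distinct sites. At the other sites, in Ext1 and Nfe2l1, the mean log2 change of the same A was 0.20, -0.56 and 0.04, and 0 of them were called. Such a match is a description of the letters only. In all, 85 of the 408 tested readings of Ddx17 rose and 44 fell, 31.6% against 9.91% over all readings.

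Cnot3, Azin1 and Ext1 also gave clear rises. C282 of Cnot3, a subunit of the CCR4-NOT deadenylase, had 23780, 22948 and 16865 CPM in vitro and 2080, 3053 and 4193 CPM in ATP-depleted cells. The log2 change was 1.96 (SE 0.18, limma adjusted p = 0.00788), and 1.65 in the overlapping amplicon. In the same stretch C287 moved the other way, from 11846, 10258 and 12368 CPM in ATP-depleted cells to 2860, 2293 and 1990 CPM in vitro. Its log2 change was -1.40 with an SE of 0.12 (limma adjusted p = 0.00775), and -1.21 in the overlapping amplicon. Within 1 short stretch, C282 was thus the stronger C in vitro and C287 the stronger C in ATP-depleted cells.

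C262 of Azin1, whose product binds antizyme and so spares ornithine decarboxylase, had 23435, 18364 and 20968 CPM in vitro and 5514, 2599 and 3531 CPM in ATP-depleted cells, a log2 change of 1.79 with an SE of 0.18 (limma adjusted p = 0.00865). C368 of Ext1, an enzyme of heparan sulfate synthesis, had 22418, 18937 and 18394 CPM against 3718, 3967 and 4395 CPM, a log2 change of 1.68 with an SE of 0.11 (limma adjusted p = 0.00479). The naming rule required groups without overlap, and in both leaders the margin between them was wide.

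The rise at C697 of Tmtc2 was less secure. It had 21385, 15179 and 8955 CPM in vitro and 347, 4321 and 3615 CPM in ATP-depleted cells (log2 change 1.64, limma adjusted p = 0.0466). It had as few as 7 counts in a library. Its call was lost without any one of 5 samples, at log2 changes of 1.31 to 1.85; the exception was in vitro replicate 3. The call was also lost after thinning (1.54), with 0.1 times the median as pseudocount (2.45), on the deposited log2 scale (3.02) and under amplicon mean scaling (1.39).

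Taok2, which encodes a kinase of the MAP kinase cascade, held 1 rise and 1 fall by the rule, and its amplicons did not give the same answer. C525 had 21960, 10941 and 8885 CPM in vitro and 3086, 1908 and 1264 CPM in ATP-depleted cells, a log2 change of 1.64, and 0.94 in the overlapping amplicon (limma adjusted p = 0.0275 and 0.0315). C488 had 1942, 1089 and 6118 CPM in vitro and 19227, 13706 and 16154 CPM in ATP-depleted cells, a log2 change of -1.72 (limma adjusted p = 0.026). The overlapping amplicon gave 8947, 22380 and 5777 CPM against 14859, 16322 and 12818 CPM, where the groups overlapped and the log2 change was -0.34 (limma adjusted p = 0.612). The call of C525 was lost without in vitro replicate 2 or ATP-depleted replicate 1 (1.74 and 1.77), and that of C488 without in vitro replicate 1 or 2 or ATP-depleted replicate 1 (-1.62, -1.49 and -1.62) and on the deposited log2 scale (-2.79).

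Among the falls, C88 of Ptp4a2, a phosphatase of the PRL family, had 948, 2435 and 2237 CPM in vitro and 11559, 13468 and 12932 CPM in ATP-depleted cells, a log2 change of -1.66 with an SE of 0.15 (limma adjusted p = 0.00788). C288 of Chtop, which takes part in mRNA export, went from 12006 ± 3029 CPM in ATP-depleted cells to 2672 ± 253 CPM in vitro (SD, n = 3 each; log2 change -1.36). C1022 of Smad6, an inhibitor of BMP signalling, went from 11992 ± 2369 to 2792 ± 706 CPM (SD, n = 3 each; log2 change -1.34). C365 of Ube4b, a ubiquitin ligase, went from 19608 ± 2091 to 5922 ± 1168 CPM (SD, n = 3 each; log2 change -1.33). The groups did not overlap at these 4 sites, as the naming rule required. The calls of Smad6 and Ube4b were also lost without ATP-depleted replicate 1, at -1.22 and -1.38.

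Brd2, which encodes a bromodomain reader of acetylated histones, held several nucleotides close together that were nearly silent in vitro. C1582 had 610, 336 and 996 CPM in vitro and 8117, 7353 and 8343 CPM in ATP-depleted cells, a log2 change of -1.54 with an SE of 0.11 (limma adjusted p = 0.00588), and -1.35 in the overlapping amplicon. In vitro it rests on as few as 4 counts in a library. C1570, C1579 and A1580 lay at 181 ± 24.8, 494 ± 336 and 501 ± 511 CPM in vitro against 4085 ± 795, 6861 ± 1555 and 6401 ± 897 CPM in ATP-depleted cells (SD, n = 3 each). The window from 1566 to 1590 had 3917, 4234 and 3541 CPM in vitro and 5582, 5081 and 5245 CPM in ATP-depleted cells, a difference of -0.62 in mean log2 reactivity (SE 0.049, limma adjusted p = 0.0012). In it 8 of 15 nucleotides were called lower and 1 higher. The overlapping amplicon gave -0.58.

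**Figure D3:**
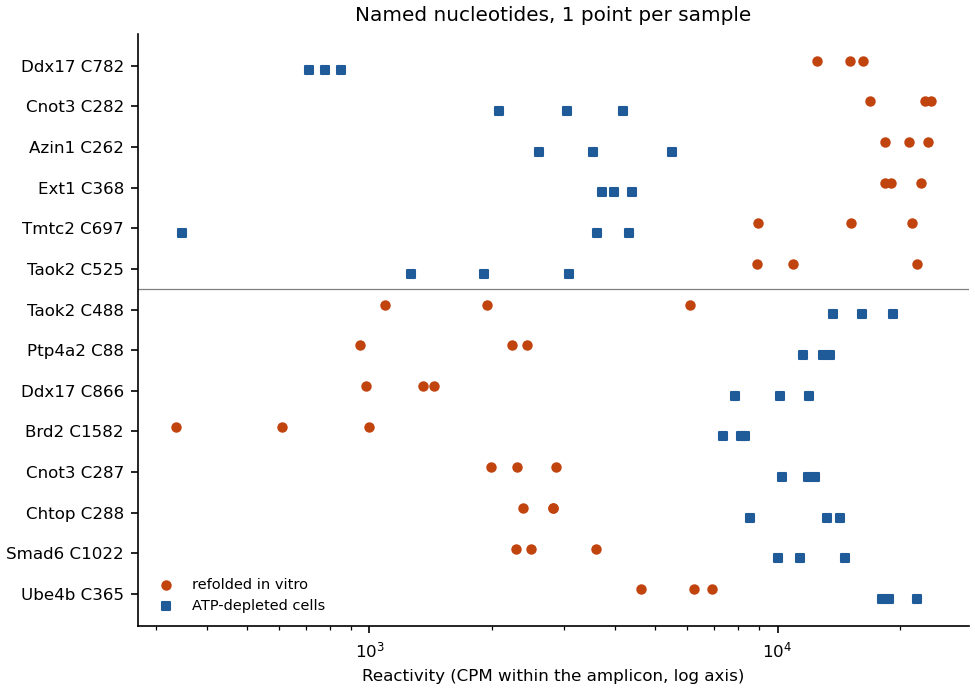
Reactivity in CPM on a log axis of 14 nucleotides named by rule, 6 rises above the line and 8 falls below it (1 point per sample; orange circles, refolded in vitro; blue squares, ATP-depleted cells). At each site the 3 orange points do not overlap the 3 blue ones, as the naming rule required. The widest gap is at C782 of Ddx17, and points of Tmtc2 and Taok2 are widely spread.

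All 14 nucleotides plotted by rule were C. Over all readings, 447 C rose and 598 fell of 9342 (4.78% and 6.40%), whereas 430 A rose and 128 fell of 6836 (6.29% and 1.87%). C with a 5′ G neighbour were called in 12.8% of readings and C with a 5′ C neighbour in 8.62%. The A of AUG triplets were called in 19 of 314 readings (6.05%), 11 higher and 8 lower. By position, 8.42% of readings were called up to position 100, 10.7% beyond it up to position 400 and 9.29% beyond 400. Calls within 25 nt of an amplicon's end came to 9.84% and those in the interior to 9.93%. Depth moved with the share called: it was 11.8% in amplicons with at least 5000 counts in every library and 5.06% in the rest.

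Positions read in 2 amplicons gave each change a second look with other primers on the same RNA. Of 2636 such positions, 158 were called in both amplicons, and 157 of them moved in the same direction, 91 higher and 66 lower, in 30 transcripts. The exception was C603 of Tle4, a corepressor, whose amplicons hold libraries of only 484 and 682 counts. A further 302 positions were called in 1 amplicon, and 280 of those had the same sign in the other. In 160 of the 302 the other amplicon had the same sign and groups that did not overlap. How often signs agreed over all positions was not counted. Across all 2636 positions the 2 log2 changes correlated at r = 0.673, a description only, since both come from the same 6 samples.

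Against 157 of 2636 positions over all transcripts, Ddx17 had 27 positions called in both amplicons of 93 read there, 23 higher and 4 lower. Brd2 had 14 of 66, 2 higher and 12 lower. Eif5 had 13 of 114, 6 higher and 7 lower, and Ext1 had 13 of 114, 10 higher and 3 lower. In Tle4, with its thin libraries, all 6 of 68 were lower, and in Tulp4 all 5 of 39 were higher. Among the sites outside the rule, chosen here after their values were seen, C472 of Hipk3, a homeodomain-interacting kinase, had 44906, 51200 and 38866 CPM in vitro against 12506, 15240 and 12744 CPM (log2 change 1.53), and 1.58 in its other amplicon. C743 of Ext1 had 12941, 10620 and 11636 CPM against 3202, 2537 and 2435 CPM (log2 change 1.34), and 1.44 in its other amplicon.

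**Figure D4:**
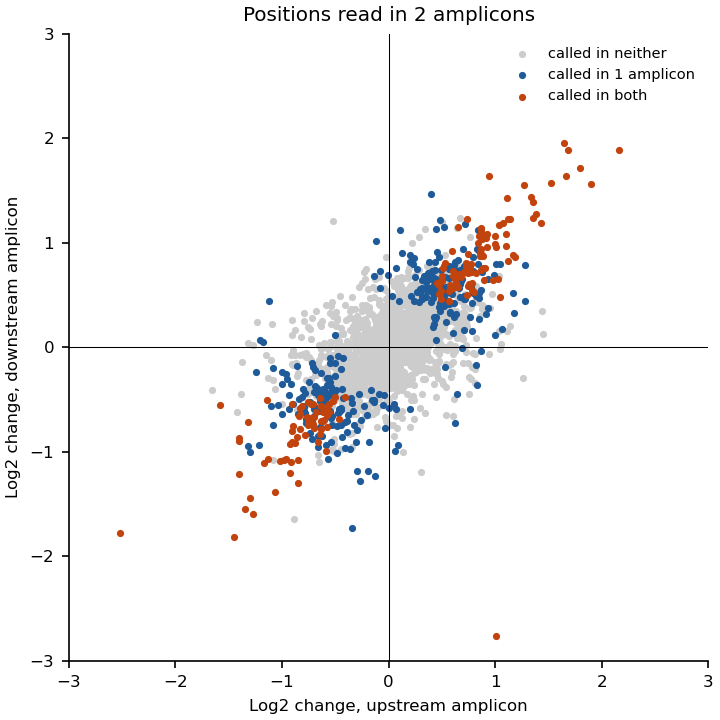
Log2 change of reactivity, in vitro minus ATP-depleted, at 2636 positions read in 2 overlapping amplicons, the upstream amplicon on the horizontal and the downstream one on the vertical axis (grey, called in neither; blue, called in 1; orange, called in both). The orange points lie in the upper right and lower left of the plot apart from C603 of Tle4 at the lower right.

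Windows of 25 nt show where neighbouring A and C moved together. Of 1305 windows with at least 6 tested nucleotides, limma called 223 (17.1%), 137 higher (10.5%) and 86 lower (6.59%), in 58 transcripts, and 27 transcripts had windows of both directions; the groups did not overlap in 39.8% of all windows. With each amplicon scaled to its mean the split was 57 higher and 287 lower, and after thinning it was 54 and 134, so the split, unlike the windows named here, depends on scaling. Without ATP-depleted replicate 1, 2 or 3 the count fell to 96, 81 and 116. Another amplicon covered 99 of the called windows, and in 97 of those it had the same sign, in 76 also without overlap between the groups. GC content was a median of 56% in the windows that rose, 68% in those that fell and 56% in all windows, and the share of A among tested nucleotides was 43.9%, 34.5% and 42.1%.

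Ddx17 held called windows at 17 of 34, 14 higher and 3 lower, and Ext1 at 17 of 42, 10 higher and 7 lower. Brd2 had 12 of 51, 6 in each direction, and Tle4 had 6 of 17, all lower. The smallest library of Tle4 held 484 counts, and its in vitro replicates correlated at only 0.525. Over all amplicons with a library under 5000 counts, 89 single readings were called higher and 139 lower. In Chd2 the window from 25 to 49, near the cap, had 9612, 10752 and 8893 CPM in vitro and 5090, 5051 and 5622 CPM in ATP-depleted cells, a difference of 0.54 (SE 0.064, limma adjusted p = 0.00473). In Tulp4 the window from 76 to 100 had 8112, 7334 and 7462 CPM against 5990, 5500 and 6315 CPM, a difference of 0.40 (SE 0.05, limma adjusted p = 0.00493). Neither pair of groups overlapped, as the naming rule required. A window of Fam13b from 503 to 520 rose by 0.41 (limma adjusted p = 0.0237). Its call was lost without in vitro replicate 1 or 2 and without ATP-depleted replicate 3, at 0.41, 0.39 and 0.45.

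Windows of Ext1, Taok2 and Zc3h6 fell. In Ext1 the window from 477 to 501 had 3542, 2856 and 3492 CPM in vitro and 5270, 5358 and 5415 CPM in ATP-depleted cells, a difference of -0.42 (SE 0.045, limma adjusted p = 0.0031). In Taok2 the window from 495 to 519 fell by 0.53 (SE 0.084, limma adjusted p = 0.00937), and the overlapping amplicon gave -0.43. On the CPM scale its groups overlapped, since in vitro replicate 2 had 8354 CPM against 7827 to 8175 CPM in ATP-depleted cells. In Zc3h6, a zinc finger gene, the window from 255 to 279 fell by 0.40 (limma adjusted p = 0.0139) and the overlapping amplicon gave -0.65. That call was lost without ATP-depleted replicate 1 or 2, at -0.37 and -0.42.

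A and C diverged over whole transcripts. The mean log2 reactivity of A minus that of C, a contrast within an amplicon, rose in vitro in 26 of 69 transcripts (37.7%) and fell in 0, by limma. At an unadjusted p under 0.05 there were 33 transcripts. The median difference was 0.10, and 58 differences were positive and 11 negative. Because a constant is added before the log2, library scaling does not cancel fully in this contrast. With 0.1 times the median as pseudocount, 31 transcripts rose and 0 fell. On the deposited log2 values, where scaling cancels, 38 rose and 0 fell. At the level of samples, the ratio of median A to median C reactivity was 2.27, 2.24 and 2.27 in vitro and 1.88, 1.76 and 1.87 in ATP-depleted cells. The groups did not overlap, as those of the contrast did not in 49.3% of transcripts; the exact two-sided permutation p was 0.1, or 0.2 adjusted over 2 such sample measures, and 0.1 is the smallest possible. Median A was higher in vitro, at 9301 ± 185 against 8451 ± 381 CPM, and median C lower, at 4116 ± 53.5 against 4602 ± 81.1 CPM (SD, n = 3 each). The difference was smaller among the stronger nucleotides. Among readings with a mean at or above the median, 0 transcripts were called (19 at an unadjusted p under 0.05), and the sample ratios differed by 0.0107.

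Ctcf again led, with contrasts of 1.11, 1.09 and 1.12 in vitro and 0.72, 0.63 and 0.71 in ATP-depleted cells (difference 0.42, SE 0.04, limma adjusted p = 0.00029). Zc3h6 rose by 0.34, Nipbl, which loads cohesin, by 0.31, and Hexim1 by 0.30, with limma adjusted p of 0.000972, 0.00309 and 0.00165. None of these 3 leaders had overlapping groups, as the naming rule required. All 4 calls were lost under the restriction to stronger nucleotides, where the differences were 0.20, 0.14, 0.21 and 0.14. Without in vitro replicate 3, 3 other transcripts were called lower beside 16 higher.

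The signal was also set against a predicted secondary structure, computed from the sequence of each amplicon alone. The prediction for a base can change with the amplicon, so 1 position can count in both classes. The pairing probability of C782 of Ddx17 was 0.66 in 1 amplicon and 0.00026 in the other. C287 of Cnot3, C1582 of Brd2 and C488 of Taok2 also changed class, while C282 of Cnot3 and C525 of Taok2 were predicted paired in both. Nucleotides predicted to be unpaired exceeded those predicted to be paired by more in vitro than in ATP-depleted cells in 29 of 69 transcripts (42%), and by less in 2 (2.9%), so 31 were called by limma (44.9%). The median difference was 0.11, 56 transcripts had a positive one, and in 56.5% the groups did not overlap. By single readings, 467 rose and 209 fell of 7613 predicted unpaired, and 410 rose and 517 fell of 8565 predicted paired. Among the latter, 438 of the falls and 237 of the rises were C. A rank measure over whole samples gave no such difference. The area under the curve with which reactivity ranked unpaired above paired nucleotides, where 0.5 is chance, was 0.694 ± 0.0101 in vitro and 0.703 ± 0.00734 in ATP-depleted cells (SD, n = 3 each), with overlapping samples and an exact two-sided permutation p of 0.3 (0.3 adjusted over 2).

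Ctcf and Eif5 had large rises of this contrast. In Ctcf it was 1.08, 1.04 and 1.11 in vitro and 0.74, 0.66 and 0.74 in ATP-depleted cells (difference 0.36, limma adjusted p = 0.00141). In Eif5 it was 0.59, 0.53 and 0.57 against 0.26, 0.25 and 0.26 (difference 0.31, limma adjusted p = 0.00115). The groups did not overlap in either, as the naming rule required. Hipk3 rose by 0.24 (limma adjusted p = 0.00469). Among nucleotides with a mean at or above the median, 1 transcript rose and 2 fell, and the calls of Ctcf, Eif5 and Hipk3 were lost there, at 0.09, 0.10 and 0.02. The call of Ctcf was also lost with C alone, at 0.06, and that of Hipk3 with A alone, at 0.18. Without ATP-depleted replicate 2 or replicate 3 the number called fell to 11 and 13.

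Chd2 and Rnf10, which encodes a RING finger ubiquitin ligase, moved the other way. In Chd2 the contrast was 0.37, 0.36 and 0.36 in vitro and 0.50, 0.51 and 0.54 in ATP-depleted cells, a difference of -0.15 (SE 0.024, limma adjusted p = 0.00469). The groups did not overlap, as the naming rule required. The call was lost with A alone, where the value was 0.01, and among nucleotides with a mean at or above the median, at -0.01. In Rnf10 it was 0.28, 0.30 and 0.25 against 0.41, 0.38 and 0.39, a difference of -0.12 (limma adjusted p = 0.0155). That call was lost without ATP-depleted replicate 2 or replicate 3, at -0.13 and -0.12, and among nucleotides with a mean at or above the median, at -0.13, and with pairing set at 0.9 and 0.1, at -0.12.

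**Figure D5:**
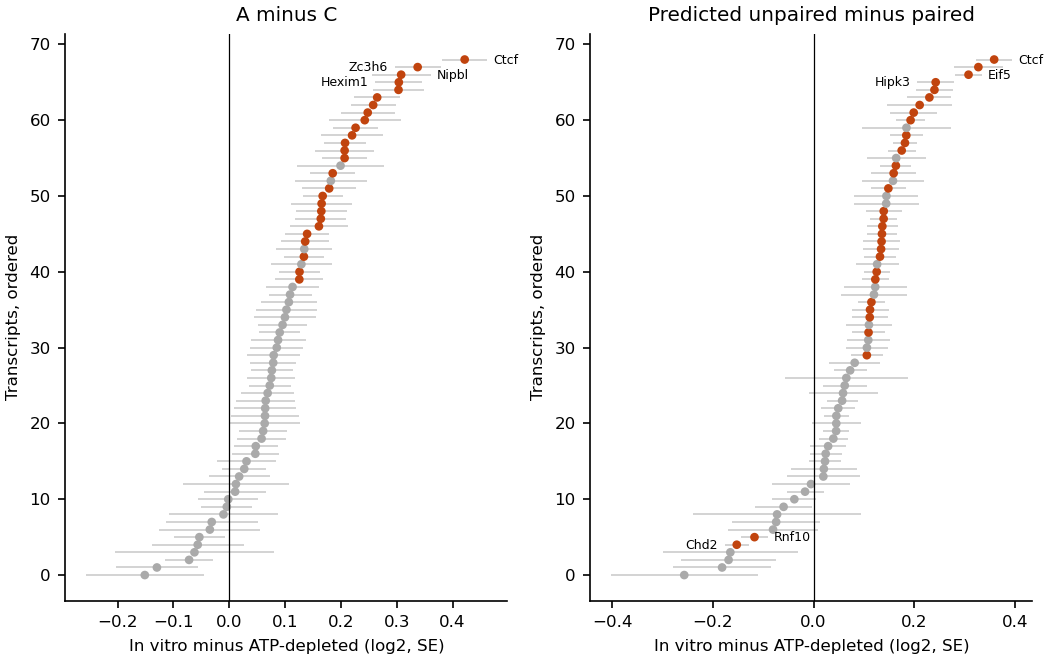
Difference between in vitro and ATP-depleted samples in 2 contrasts of log2 reactivity for 69 transcripts, ordered by size (left, A minus C; right, predicted unpaired minus predicted paired; points, limma estimates; bars, SE; orange, adjusted p under 0.05; grey, not called). Most points lie to the right of 0, Ctcf is highest in both panels at 0.42 and 0.36, and the only called points left of 0 are Chd2 and Rnf10 in the right panel.

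Transcripts were also grouped by what their proteins do. The 2 leaders of the translation group, Azin1 and Eif5, had 145 of 717 readings called (20.2%), 90 higher and 55 lower, and both rose in Gini coefficient and in the contrast of predicted pairing. The 4 leaders of RNA helicases and RNA-binding proteins, Ddx17, Ddx6, Mbnl1 and R3hdm1, had 186 of 998 (18.6%), 122 higher and 64 lower, of which Ddx17 gave 129. In Gini coefficient 2 of those 4 rose and 1 fell, with a median difference of 0.0447 against 0.0838 over all transcripts. The 6 chromatin leaders, Brd2, Chd2, Eed, Jmjd1c, Kdm2a and Kmt2e, had 184 of 1942 called (9.47%), 75 higher and 109 lower, and 4 rose in Gini coefficient.

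In the other groups the share called lay near or under the 9.91% of all readings. The 5 transcription regulators, Nfe2l1, Rarg, Smad6, Tle4 and Tulp4, had 135 of 1270 (10.6%), and 4 of them rose in Gini coefficient. The 8 signalling leaders, among them Mapk6, Nlk and Ptp4a1, had 169 of 2142 (7.89%), with 6 rises in Gini coefficient. The ubiquitin pair, Rnf10 and Ube4b, had 53 of 671 (7.90%), and both rose in Gini coefficient. The 4 cell cycle leaders, Esco1, Nipbl, Ptms and Sertad2, had 20 of 647 (3.09%), with 2 rises in Gini coefficient. The remaining 38 transcripts had 711 of 7791 (9.13%), with 36 rises and 0 falls in Gini coefficient.

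Among leaders with at least 5000 counts in every library, the share of readings called was highest in Ddx17 at 31.6%, then Eif5 at 26.7%, Ext1 at 23.5%, Cnot3 at 19.5% and Ctcf at 18.8%. It was lowest in E2f3, a cell cycle transcription factor, at 0.87%, then Sertad2 at 1.95%, Ncdn at 2.5%, and Klf7 and Tmtc2 at 3.33% each. Replicate agreement moved with this order: in vitro replicates correlated at 0.909 to 0.971 across nucleotides in the 5 highest leaders and at 0.411 to 0.717 in the 5 lowest. The part of replicate noise in the low shares was not tested. In Ddx17 the correlation between the groups was 0.623, against 0.909 among in vitro and 0.979 among ATP-depleted replicates. In E2f3 it was 0.547, against 0.411 and 0.684, so a low share there does not show that tube and cell were alike.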

How the data were processed

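The authors deposited log2 values, one per nucleotide, amplicon and sample. No header or label names their unit. Every value is the log2 of a CPM, taken within 1 amplicon of 1 sample from a whole count plus 0.5: in 966 of 966 libraries 100% of them gave back whole counts (tolerance 0.0001). Coverage per position is not in hand, and mutation rates were therefore not calculated. The submitters' processing notes name bcl2fastq, Bowtie2 and limma; the reference build is not given in the sources used here. The labels state independent samples for each condition.

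Values were turned back to CPM and tested on log2(CPM + 3171.35), where the added constant is 0.5 of the median over A and C of all 6 samples (6342.7) and shrinks the changes of weakly reactive nucleotides. The 6 samples were fitted with limma 3.58.1 (R 4.3.3), without trend or robust options and with no covariate; p was two-sided and adjusted by Benjamini-Hochberg over all readings, windows or transcripts. Transcript values average over amplicons. Pairing probabilities came from ViennaRNA 2.7.2 at 37 °C on the 185 to 218 nt read per amplicon (paired at 0.5 or more), without primers and the rest of the transcript. Summaries used Python 3.11.15, and the fit was tested on simulated data.

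Transcripts were named through RefSeq for 68 of 69. The members and lists were chosen with earlier results of these data known. Named were, among calls without overlap between groups on the tested scale, the largest change per transcript, then 8 rises and 8 falls of nucleotides and 5 and 5 of windows in amplicons with at least 5000 counts per library, 5 rises and up to 5 falls in Gini coefficient, 4 and 4 in each contrast, and the 5 highest and 5 lowest shares called; some items that this rule reached are not reported here. Alternatives covered pseudocount, deposited log2 scale, low-value and depth filters, scaling, A or C alone, amplicon ends, limma options, weights, window length, pairing rule, replicate block and omission of each sample; thinning was chosen after seeing the data.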

Additional observations from a re-analysis of the deposited data

How the results depend on the processing

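Leaving out 1 sample at a time, limma called 0 to 1099 nucleotides (against 1603), 81 to 235 windows (against 223), 40 to 62 transcripts in Gini coefficient (against 59), 14 to 27 in A minus C (against 26) and 11 to 34 in unpaired minus paired (against 31). Without in vitro replicate 1 or 2 the nucleotides called were 747 and 909. With the replicate number as a block, 0 nucleotides were called (smallest adjusted p 0.0813; 3955 at an unadjusted p under 0.05) and 128 windows, 66 higher and 62 lower; same-numbered samples deviated together at correlations of only -0.0177, 0.0104 and 0.00521, so the numbers were not taken as pairs, and lost calls are not read as weaker effects. Restricted to nucleotides with a mean at or above the median, 783 nucleotides, 0 transcripts in A minus C (smallest adjusted p 0.0946) and 3 in unpaired minus paired were called, and the windows called split into 214 higher and 14 lower; the Gini difference of Ddx17 became 0.0354. A alone gave 420 nucleotides, 121 windows and 9 transcripts in unpaired minus paired; there the contrast of Chd2 was 0.0121 and the sample difference in area under the curve 0.00386 (exact permutation p = 0.6). C alone gave 20 transcripts in unpaired minus paired, windows of 40 nt gave 148 calls, and amplicon mean scaling gave 344 windows. The causes of these changes were not tested. A alone, C alone and the filter left fewer readings, and the 40-nt setting fewer windows, but the part this played was not tested either. With at least 5000 counts per library the nucleotides split into 1242 higher and 917 lower. With the deposited log2 values the windows split into 67 higher and 143 lower, with 0.1 times the median as pseudocount into 104 and 136, and with C alone into 64 and 105. Of the items named here, 0 of 14 nucleotides, 7 of 9 windows, 4 of 6 Gini coefficients, 0 of 4 contrasts of A and C and 0 of 5 of predicted pairing kept their call in every alternative run. Depth limits the in vitro libraries most: 19 to 35 of 161 amplicons were under 5000 counts there, against 4 to 8 in ATP-depleted cells.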
